A study of Mus musculus with 6 samples.

Results

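Ependymal cells line the brain's ventricles and carry motile cilia, and the choroid plexus is the ventricular epithelium that secretes cerebrospinal fluid. Messenger RNA of 8 genes used as markers of these cells was followed here in mouse lateral amygdala: Foxj1, Rsph1, Ccdc153, Dynlrb2, Tmem212, Efcab10, Tmem107 and Ttr. They are 8 of 50383 gene IDs in the deposited tables. They were taken as a guide to how much ventricle-lining tissue each dissection held, and they were chosen by their FPKM in the 3 groups and in replicates 1 and 2, with those values already known. Their levels and differences are therefore given as a description with no test. Where limma calls are counted for them below, those counts are descriptions too.

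A motile cilium is built on an axoneme, a ring of microtubule pairs driven by dynein arms and regulated by radial spokes. FOXJ1 is the transcription factor that switches on the genes of motile cilia, together with factors of the RFX family. Most other cells, neurons and astrocytes included, carry a single non-motile primary cilium, which shares the intraflagellar transport and gate proteins but lacks most of the axonemal motor. In the brain Ttr, which encodes the thyroid hormone and retinol carrier transthyretin, is made mainly by choroid plexus epithelium.

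The 6 libraries came from 129xC57BL/6 hybrid male mice of 2 to 3 months, with 2 libraries in each of 3 groups named Baf53b siRNA, scrambled siRNA and control. Baf53b, also called Actl6b, is the neuron-specific subunit of the BAF nucleosome remodelling complex, and the design text places the injection of its siRNA 1 day after fear training. What the control mice received, and whether scrambled siRNA was injected at the same time, is not stated in the labels. The protocol names tissue from 4 mice without saying how they were divided over libraries, so all spreads and p-values measure differences between libraries, which may be technical. The tissue is bulk, and fewer cells of a type and less RNA per cell cannot be told apart in it.

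Levels are FPKM, fragments scaled to gene length and to the fragments mapped in the library, as deposited. From the deposited intervals, between 6.42 M and 10.7 M fragments per library were estimated to lie behind the genes. Mitochondrial genes took between 15.02% and 29.5% of the FPKM sum and a larger share in replicate 2 of every group, and their part in the results below was not tested. Spike-in RNA took 0.755% of the FPKM sum in Baf53b siRNA replicate 1 and between 0.0191% and 0.128% in the other libraries. Whether this bears on the low values of that library was not tested. The excitatory neuron transporter Slc17a7 ran between 287.5 and 410.3 FPKM, as a check of the labelled tissue. The targeted gene Actl6b had 42.8 and 39.6 FPKM with Baf53b siRNA, against 43.8 and 43.9 FPKM with scrambled siRNA and 42.9 and 44.1 FPKM in control. Its difference from scrambled siRNA was -0.09 on the log2(FPKM + 1) scale (SE 0.12, limma adjusted p = 1), so the transcript was not detectably lower in the libraries labelled Baf53b siRNA.

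Promoters were looked up because RFX factors and FOXJ1 act on ciliary genes through short DNA motifs. RefSeq sequences on GRCm38.p6, from 250 bases before to 50 bases after the annotated start, were at hand for 5 of the 8 genes and not for Foxj1, Rsph1 and Ttr. The RFX half-site GTTGCC, read on both strands, was found in 3 of the 5. These are the promoters shown here, 5′ to 3′ on the gene's strand, with the half-site in capitals (as GGCAAC where it lies on the opposite strand). They lie at chr9:44240427-44240726 for Ccdc153, chr8:116504765-116505064 for Dynlrb2 and chr12:33394604-33394903 for Efcab10, all on the plus strand.
Ccdc153: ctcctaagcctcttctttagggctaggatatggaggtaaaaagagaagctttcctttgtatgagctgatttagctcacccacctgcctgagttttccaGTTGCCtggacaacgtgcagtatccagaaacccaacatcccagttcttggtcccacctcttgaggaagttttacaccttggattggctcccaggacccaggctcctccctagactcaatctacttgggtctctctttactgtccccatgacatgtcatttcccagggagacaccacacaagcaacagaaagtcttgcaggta
Dynlrb2: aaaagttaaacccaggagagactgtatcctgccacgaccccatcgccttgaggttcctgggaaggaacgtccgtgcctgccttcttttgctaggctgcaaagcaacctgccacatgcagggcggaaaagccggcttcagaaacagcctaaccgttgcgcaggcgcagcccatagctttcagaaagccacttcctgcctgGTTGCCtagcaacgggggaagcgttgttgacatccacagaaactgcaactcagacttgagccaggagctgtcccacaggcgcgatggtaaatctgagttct
Efcab10: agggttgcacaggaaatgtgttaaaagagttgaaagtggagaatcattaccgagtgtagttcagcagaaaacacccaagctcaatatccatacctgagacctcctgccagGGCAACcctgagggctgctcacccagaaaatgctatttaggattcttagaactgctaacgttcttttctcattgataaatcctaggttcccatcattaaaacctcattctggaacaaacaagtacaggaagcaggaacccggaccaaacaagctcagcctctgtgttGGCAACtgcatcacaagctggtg
Counted from the annotated start as position 0, the half-site began at -152 in Ccdc153 and at -51 in Dynlrb2. In Efcab10 it covered positions -140 to -135 and again 27 to 32. The same 6 letters occurred in 12.5% of all 32851 promoters in the table and in 40.2% of 82 promoters of the motile cilium genes listed further on. A strict pair of half-sites, GTTNCC and GGNAAC with 0 to 3 bases between them, was in 0 of the 5, against 0.804% of all promoters. The forkhead motif GTAAACA was also in 0 of the 5, against 3.65% of all promoters. A looser pair, GTNNCC and NGNAAC with 0 to 3 bases between them, was searched only after the sequences had been seen. It matched GTTGCCTAGCAAC in Dynlrb2, which overlaps the half-site in capitals, and GTATCCAGAAAC in Ccdc153, against 3.03% of all promoters and 20.7% of the motile cilium promoters. These matches describe letters in a window and show no binding.

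The regulator Foxj1 (ENSMUSG00000034227.7, mm10 chr11:116330704-116335399, minus strand) stood at 1.29 and 2.38 FPKM in replicates 1 and 2 of Baf53b siRNA, 1.75 and 1.24 FPKM with scrambled siRNA and 1.70 and 2.76 FPKM in control. All 3 groups overlapped, and the highest library was control replicate 2. Means were 1.83 ± 0.769 FPKM with Baf53b siRNA, 1.49 ± 0.361 FPKM with scrambled siRNA and 2.23 ± 0.752 FPKM in control (SD, n = 2 each). On the log2(FPKM + 1) scale, which understates differences of low genes, Foxj1 differed by 0.16 between Baf53b siRNA and scrambled siRNA, by -0.20 between Baf53b siRNA and control and by -0.36 between scrambled siRNA and control (SE 0.26 each). Of 14 listed regulators of multiciliation and ciliary genes, 7 stayed under 1 FPKM in every library. Among these, and named after their values were seen, the inducers of the multiciliated state Gmnc and Mcidas ran at 0.190 to 0.319 FPKM and 0 to 0.103 FPKM.

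Rsph1 encodes a protein of the radial spoke head, which passes signals from the central microtubules to the dynein arms (ENSMUSG00000024033.9, chr17:31255019-31277356, minus strand). It measured 5.71 and 6.20 FPKM with Baf53b siRNA, 5.20 and 4.56 FPKM with scrambled siRNA and 6.46 and 6.82 FPKM in control. The 3 groups did not overlap, with control highest and scrambled siRNA lowest. Mean levels were 5.95 ± 0.352, 4.88 ± 0.455 and 6.64 ± 0.255 FPKM in Baf53b siRNA, scrambled siRNA and control. The log2 differences were 0.24 for Baf53b siRNA against scrambled siRNA, -0.14 for Baf53b siRNA against control and -0.38 for scrambled siRNA against control (SE 0.15 each). An antisense gene, AC154652.1, shares 2960 bases with Rsph1 and is not listed in the tables, and whether the authors counted by strand is not given in the sources used here.

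Ccdc153, a coiled-coil protein of the nexin-dynein regulatory complex, showed the widest span of the 8 genes (ENSMUSG00000070306.3, chr9:44240676-44247306, plus strand). Baf53b siRNA libraries had 0.406 and 2.85 FPKM, scrambled siRNA libraries 2.03 and 2.45 FPKM and control libraries 4.14 and 7.33 FPKM, an 18.1-fold span from lowest to highest library. Both control libraries lay above all 4 others, while the siRNA groups overlapped. The group means were 1.63 ± 1.73, 2.24 ± 0.293 and 5.74 ± 2.26 FPKM in the same order. The log2 difference was -0.47 between Baf53b siRNA and scrambled siRNA, -1.49 between Baf53b siRNA and control and -1.02 between scrambled siRNA and control (SE 0.46 each). Depth limits this gene most: an estimated 1.54 fragments lay behind the lowest library, whose deposited interval ran from 0 to 1.06 FPKM, against 61.1 fragments in the highest. Without Baf53b siRNA replicate 1 the difference of Baf53b siRNA from control was -0.77, and without replicate 2 it was -2.22.

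Dynlrb2 encodes a roadblock-type dynein light chain that ciliated tissues favour over its widespread paralogue Dynlrb1 (ENSMUSG00000034467.7, chr8:116504974-116515915, plus strand). It reached 0.936 and 3.26 FPKM with Baf53b siRNA, 2.73 and 0.969 FPKM with scrambled siRNA and 4.01 and 3.24 FPKM in control. Control stood above scrambled siRNA and overlapped Baf53b siRNA by a narrow margin. Both siRNA groups held 1 low library, replicate 1 of Baf53b siRNA and replicate 2 of scrambled siRNA. Means were 2.097 ± 1.64, 1.85 ± 1.24 and 3.63 ± 0.541 FPKM in Baf53b siRNA, scrambled siRNA and control, with log2 differences of 0.08, -0.68 and -0.77 for Baf53b siRNA against scrambled siRNA, Baf53b siRNA against control and scrambled siRNA against control (SE 0.42 each). Between 4.26 and 30.8 fragments per library were estimated behind these values. Dynlrb1 ran between 180.8 and 237.0 FPKM.

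Tmem212, a transmembrane protein whose transcript marks ependymal cells, was among the lowest (ENSMUSG00000043164.3, chr3:27866066-27896368, minus strand). Its FPKM were 0.588 and 2.01 with Baf53b siRNA, 1.78 and 1.06 with scrambled siRNA and 2.13 and 3.49 in control. Each control library was above each siRNA library, by as little as 2.13 against 2.01 FPKM. The 3 means were 1.30 ± 1.01, 1.42 ± 0.511 and 2.81 ± 0.960 FPKM, and the log2 differences were -0.13 for Baf53b siRNA against scrambled siRNA, -0.78 for Baf53b siRNA against control and -0.65 for scrambled siRNA against control (SE 0.34 each). The snoRNA gene Gm26040 on the opposite strand was listed at 0 in all 6 libraries.

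Efcab10, a protein with the calcium-binding EF-hand fold, varied little (ENSMUSG00000020562.7, chr12:33394854-33401267, plus strand). It had 5.44 and 5.76 FPKM with Baf53b siRNA, 5.18 and 5.01 FPKM with scrambled siRNA and 6.79 and 7.74 FPKM in control. None of the groups overlapped, and control was again highest and scrambled siRNA lowest. Means of 5.60 ± 0.222, 5.09 ± 0.121 and 7.26 ± 0.673 FPKM gave log2 differences of 0.11 for Baf53b siRNA against scrambled siRNA, -0.32 for Baf53b siRNA against control and -0.44 for scrambled siRNA against control (SE 0.14 each).

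Tmem107 encodes a membrane protein of the transition zone, the gate at the base of primary and motile cilia alike, so it is not particular to ventricular cells (ENSMUSG00000020895.14, chr11:69070806-69073293, plus strand). Levels were 5.45 and 6.11 FPKM with Baf53b siRNA, 9.54 and 6.05 FPKM with scrambled siRNA and 9.92 and 8.92 FPKM in control. Both Baf53b siRNA libraries lay below both control libraries, and scrambled siRNA had 1 library near each of the other groups. Mean levels were 5.78 ± 0.468, 7.80 ± 2.47 and 9.42 ± 0.707 FPKM in Baf53b siRNA, scrambled siRNA and control. Log2 differences were -0.35 between Baf53b siRNA and scrambled siRNA, -0.62 between Baf53b siRNA and control and -0.27 between scrambled siRNA and control (SE 0.21 each). The last of these was 0.02 without scrambled siRNA replicate 2 and -0.56 without scrambled siRNA replicate 1.

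Ttr (ENSMUSG00000061808.3, chr18:20665250-20674324, plus strand) followed another order. Baf53b siRNA libraries held 1.00 and 2.73 FPKM, scrambled siRNA libraries 8.87 and 0.884 FPKM and control libraries 1.09 and 2.39 FPKM. The highest and the lowest of all 6 libraries were thus the 2 of scrambled siRNA, with deposited intervals of 7.34 to 10.4 FPKM and 0.537 to 1.23 FPKM. Group means were 1.86 ± 1.22, 4.88 ± 5.65 and 1.74 ± 0.922 FPKM. The log2 differences were -0.66 for Baf53b siRNA against scrambled siRNA, 0.04 for Baf53b siRNA against control and 0.70 for scrambled siRNA against control (SE 0.72 each). Without scrambled siRNA replicate 1 they were 0.54 for Baf53b siRNA against scrambled siRNA and -0.50 for scrambled siRNA against control, and without replicate 2 they were -1.85 and 1.89. The value of 0.04 was between -0.09 and -0.01 under the 3 other scalings tried. Ttr therefore gave no direction between groups that did not rest on 1 library.

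**Figure D1:**
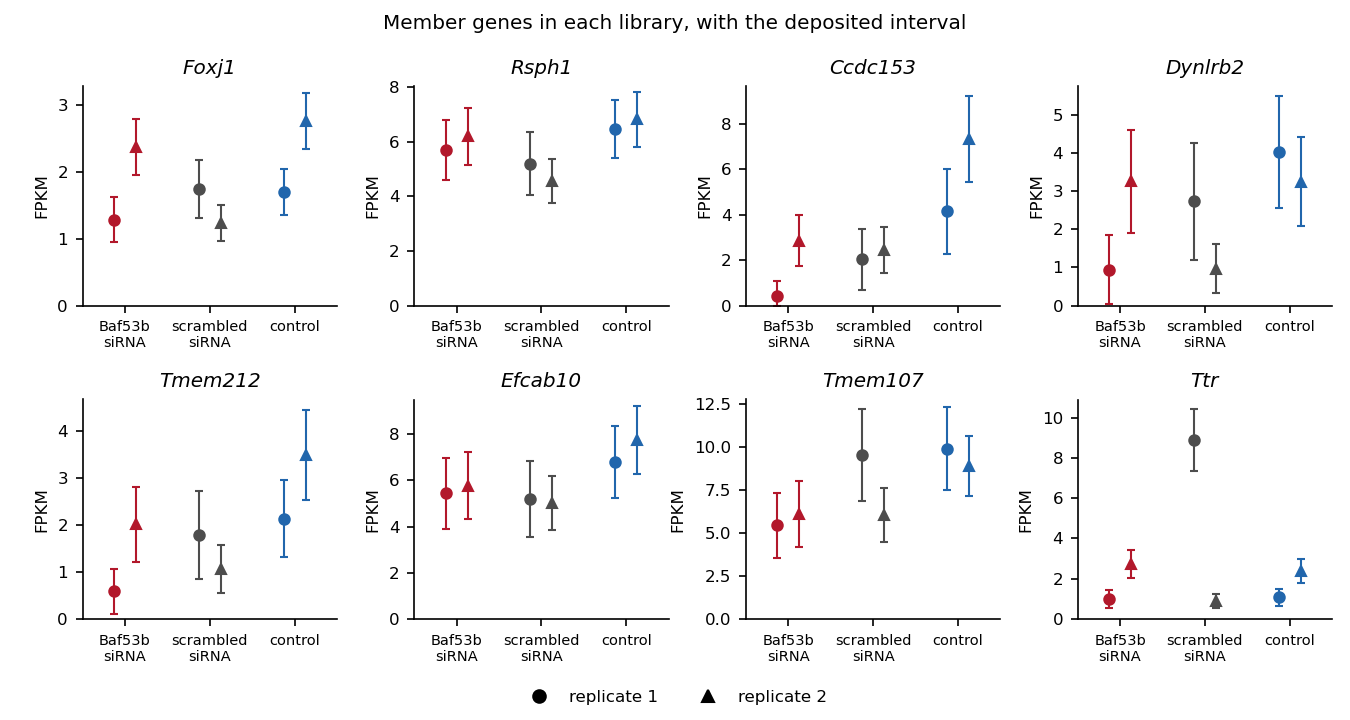
FPKM of each of the 8 genes (vertical axis, from 0) in the 2 libraries of Baf53b siRNA, scrambled siRNA and control, with bars for the deposited interval; circles are replicate 1 and triangles replicate 2. Control lies above both siRNA groups for Ccdc153, Rsph1, Efcab10 and Tmem212, and Ttr stands out in scrambled siRNA replicate 1 at 8.87 FPKM.

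Across the 8 genes the control libraries tended to hold the higher values. With limma over all 14664 genes tested, 0 of the 8 passed an adjusted p of 0.05 for Baf53b siRNA against scrambled siRNA, against 0.123% of all genes, and 0 of the 8 for Baf53b siRNA against control, against 1.23% of all genes. For scrambled siRNA against control 0 of the 8 passed, and 0% of all genes did. At an unadjusted p under 0.05 the counts were 0 of the 8 for Baf53b siRNA against scrambled siRNA (3.03% of all genes), 2 of the 8 for Baf53b siRNA against control (Ccdc153 and Tmem107, 5.02% of all genes) and 2 of the 8 for scrambled siRNA against control (Rsph1 and Efcab10, 2.22% of all genes). None of the alternative settings tried gave an adjusted call for any of the 8 in any comparison. The genes were chosen with these values known, so their p-values test nothing and the counts show no enrichment.

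Both Baf53b siRNA libraries lay below both control libraries for 5 of the 8 genes, Ccdc153, Rsph1, Tmem212, Efcab10 and Tmem107, against 7.11% of all genes. Both scrambled siRNA libraries lay below both control libraries for 5 of the 8, Ccdc153, Rsph1, Dynlrb2, Tmem212 and Efcab10, against 5.57% of all genes. The median log2 difference of the 8 was -0.47 for Baf53b siRNA against control and -0.41 for scrambled siRNA against control, beside 0.04 over all genes tested in each, and 7 of the 8 had a value below 0 in either one, against 39.3% and 36.4% of all genes. These 2 comparisons share the control libraries and are not independent of each other. Between the siRNA groups, both Baf53b siRNA libraries were above both scrambled siRNA libraries for Rsph1 and Efcab10 (13.1% of all genes) and below them for 0 of the 8 (9% of all genes). The median was -0.02 there, and it lay between -0.45 and 0.27 when single libraries were left out, so no direction was seen between the siRNA groups. Since the genes were chosen with these values known, the shares are a background and no test.

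Microglial markers separated the same groups in the opposite direction. The 8 listed genes summed to 548.8 and 457.9 FPKM with Baf53b siRNA, 332.8 and 333.0 FPKM with scrambled siRNA and 222.8 and 215.2 FPKM in control, with none at 0. All 8 had a positive difference for Baf53b siRNA against control, with a median of 1.05 and 5 called by limma, among them Cx3cr1 and C1qa. All 8 were also positive for scrambled siRNA against control, with a median of 0.55 and 0 called. Their part in the ciliary gene values was not tested.

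**Figure D2:**
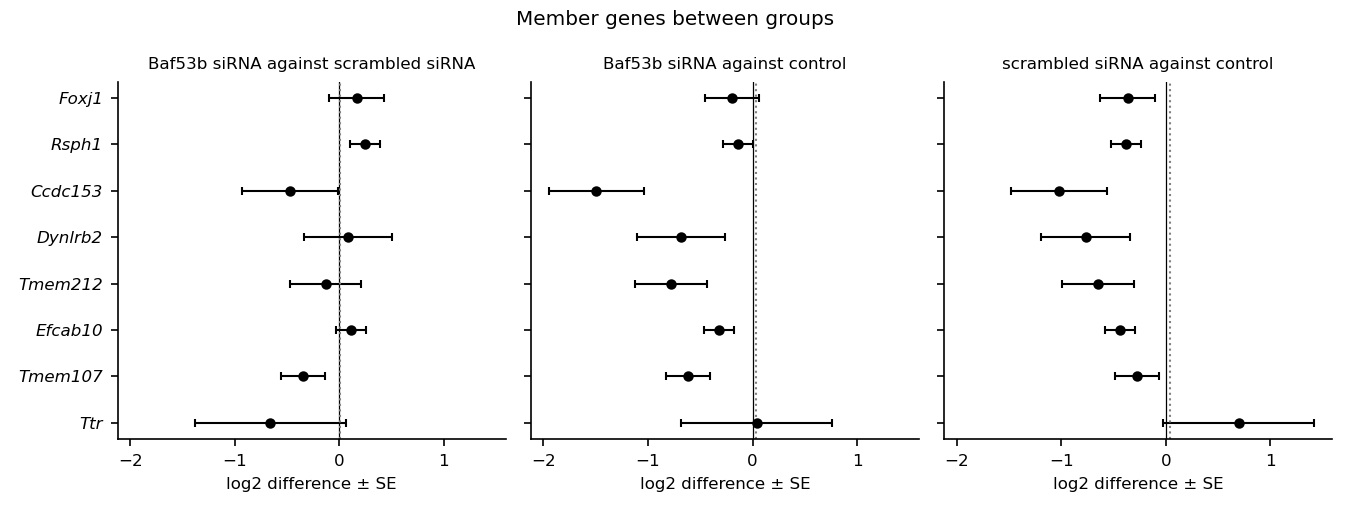
Log2 difference in log2(FPKM + 1) with its standard error (horizontal axis) for each of the 8 genes in the 3 comparisons, with the median of all tested genes as a dotted line. Against control, 7 of the 8 values lie below 0 in both panels, and Ttr, at 0.04 and 0.70, is the exception; between the siRNA groups the values lie on both sides of 0.

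By the medians of the 8 genes, differences between the libraries of 1 group were of a similar size to those from control. Single genes departed from this both ways. Efcab10 differed by -0.07, 0.04 and -0.17 within Baf53b siRNA, scrambled siRNA and control. Against control it differed by -0.32 with Baf53b siRNA and -0.44 with scrambled siRNA. Ttr differed by 2.39 within scrambled siRNA, more than between any groups. Within Baf53b siRNA all 8 genes were lower in replicate 1 than in replicate 2, with a median log2 difference of -0.73 and 5 genes whose deposited intervals did not meet. Within scrambled siRNA 7 of the 8 were higher in replicate 1, with a median of 0.37, and the intervals of Ttr alone did not meet. Within control 6 of the 8 were lower in replicate 1, with a median of -0.32, and the intervals of Foxj1 and Ttr did not meet. How often intervals did not meet over all genes was not counted, so these interval counts have no background. The intervals cover counting error only. Over all genes tested the medians were 0.07, 0.13 and 0.11 in Baf53b siRNA, scrambled siRNA and control, with 60.3%, 68.1% and 64.5% of genes higher in replicate 1.

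The replicate numbers thus did not order the genes the same way in each group. Ccdc153 was the 1 gene of the 8 that was lower in replicate 1 in all 3 groups, against 11.4% of all genes. Foxj1, Rsph1, Tmem212, Efcab10 and Ttr, 5 of the 8, were lower in replicate 1 of Baf53b siRNA and control and higher in replicate 1 of scrambled siRNA, against 5.82% of all genes. With group in the model, 0 of the 8 passed an adjusted limma p of 0.05 between replicate 1 and replicate 2, against 0.327% of all genes, and Ccdc153 alone had an unadjusted p under 0.05 (26.7% of all genes). Its difference was -0.78 (SE 0.25). The choice of the genes used these values as well, so that p-value is a description only. The median over the 8 genes was -0.03, beside 0.10 over all genes tested. Among the 53 other motile cilium genes described further on, 0 passed between replicate numbers, 9 had an unadjusted p under 0.05, and the median was 0.0063.

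**Figure D3:**
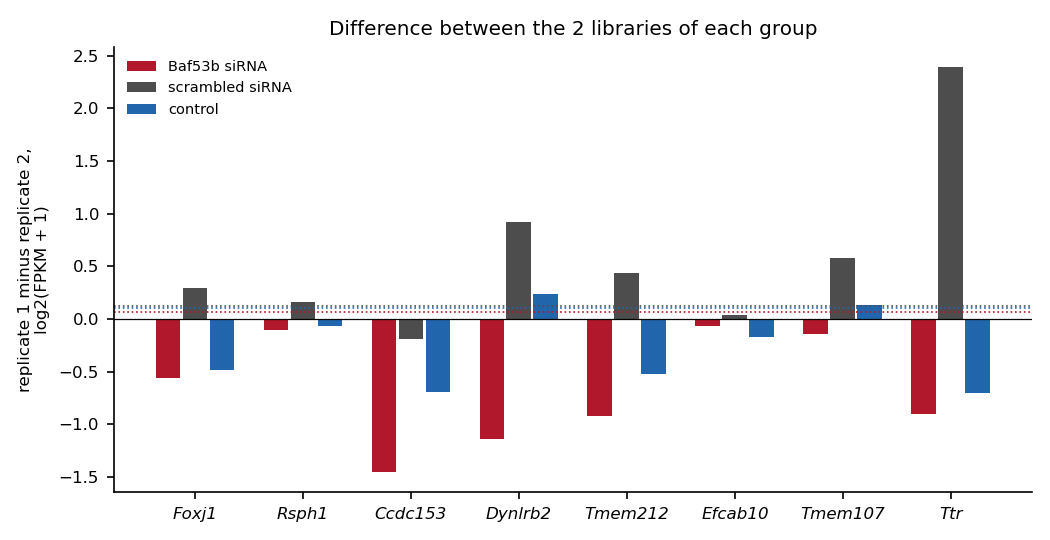
Replicate 1 minus replicate 2 in log2(FPKM + 1) (vertical axis) for the 8 genes in Baf53b siRNA, scrambled siRNA and control, with dotted lines at the median of all tested genes in each group. All bars of Baf53b siRNA lie below 0 and 7 of 8 bars of scrambled siRNA above it, with Ttr at 2.39 in scrambled siRNA.

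The 7 genes other than Ttr moved together over the libraries. Their mean standardised level was -1.01 and 0.21 in Baf53b siRNA, -0.08 and -0.93 in scrambled siRNA and 0.64 and 1.17 in control, in units of SD over the 6 libraries. Control replicate 2 was the highest library for 5 of the 7 and control replicate 1 for Dynlrb2 and Tmem107. Baf53b siRNA replicate 1 was lowest for 4 of the 7 and scrambled siRNA replicate 2 for the other 3. All 21 pairs of these genes had a positive Pearson r over the 6 libraries, with a median of 0.72 and a range of 0.38 to 0.93. The r of Ttr with the 7 was lower, with a median of 0.36 and a range of -0.13 to 0.47. The points share libraries and groups, and these values are descriptions.

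In control the levels descended in the order Tmem107, Efcab10, Rsph1, Ccdc153, Dynlrb2, Tmem212, Foxj1 and Ttr, on the FPKM scale, which corrects for gene length. Tmem107 (9.42 FPKM) stood above Efcab10 (7.26 FPKM) by more than their SD, and every later pair of neighbours in this order differed by no more than the larger of its SD. The 3 genes at 5 FPKM or more on average were also those with the smallest span over libraries, at 1.50-fold for Rsph1, 1.55-fold for Efcab10 and 1.82-fold for Tmem107. Foxj1 spanned 2.23-fold, Dynlrb2 4.28-fold, Tmem212 5.93-fold and Ttr 10.04-fold.

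Other genes of the motile cilium were followed through 3 lists of 91 genes: dynein arms and their assembly, radial spokes with the central pair and nexin link, and tektins with other axonemal proteins. Of these, 53 had a mean of at least 1 FPKM and were tested. For scrambled siRNA against control 41 of the 53 had a negative difference and 12 a positive one, against 36.4% of all genes negative. The median was -0.08 beside 0.04 over all genes. For Baf53b siRNA against control 34 were negative and 19 positive, against 39.3% of all genes negative, with a median of -0.07. Baf53b siRNA against scrambled siRNA had 21 negative and 32 positive values, with a median of 0.05 beside 0.0026 over all genes. None of the 53 passed the adjusted limma test in Baf53b siRNA against scrambled siRNA, Baf53b siRNA against control or scrambled siRNA against control. Of all genes 0.123%, 1.23% and 0% passed in that order. An unadjusted limma p under 0.05 was found for 0, 2 and 1 of the 53, against 3.03%, 5.02% and 2.22% of all genes, so these counts were near the background.

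Most libraries that were extreme for the 7 ciliary genes were also extreme for the 53. Control replicate 1 was not: it was the highest for 2 of the 7 and for 9 of the 53 (17.0%), against 14.2% of all genes. Control replicate 2 was the highest library for 22 of them (41.5%), against 13.5% of all genes tested. Scrambled siRNA replicate 2 was the highest for 0, against 6.51% of all genes, and the lowest for 18 (34.0%), against 12.5% of all genes. It was the deepest library. Baf53b siRNA replicate 1 was the lowest for 13 (24.5%), against 8.24% of all genes.

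Single genes show what the lists held. The best expressed were Dnal1, an axonemal dynein light chain with 36.8 to 43.1 FPKM, and Tppp3, a tubulin-binding protein with 26.1 to 35.8 FPKM. Enkur, a protein of the ciliary shaft, was lowest in Baf53b siRNA replicate 1 and highest in control replicate 2, as Ccdc153 and Tmem212 were among the 7 genes. It had 1.89 and 4.31 FPKM with Baf53b siRNA, 2.98 and 3.29 FPKM with scrambled siRNA and 3.94 and 6.70 FPKM in control. Cfap46, of the central pair, had 5.33 and 3.55 FPKM with Baf53b siRNA, 5.93 and 2.87 FPKM with scrambled siRNA and 5.83 and 3.06 FPKM in control, and so was higher in replicate 1 of every group. Lrrc23, of the radial spoke, was lower in replicate 1 of every group, at 2.55 and 6.56 FPKM with Baf53b siRNA, 3.21 and 3.69 FPKM with scrambled siRNA and 3.74 and 5.26 FPKM in control.

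The other 38 listed motile cilium genes were below the filter and were not tested. Control had the highest group mean for 28 of them, both control libraries lay above all 4 siRNA libraries for 7 and below them for 0. The same counts were not made over all genes below the filter, so there is no background to judge them by. Control replicate 2 was the highest library for 21, and Baf53b siRNA replicate 1 was the lowest for 17 and scrambled siRNA replicate 2 for 10. A pair of examples was named after their values were seen. Sntn, a protein of the ciliary tip, was listed at 0 in Baf53b siRNA replicate 1 and at 0.247 FPKM in replicate 2, at 0.238 and 0.289 FPKM with scrambled siRNA and at 0.670 and 0.782 FPKM in control. Stoml3 was listed at 0 and 0.436 FPKM with Baf53b siRNA, 0.410 and 0.396 FPKM with scrambled siRNA and 0.633 and 1.47 FPKM in control. Both are among the 7.

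**Figure D4:**
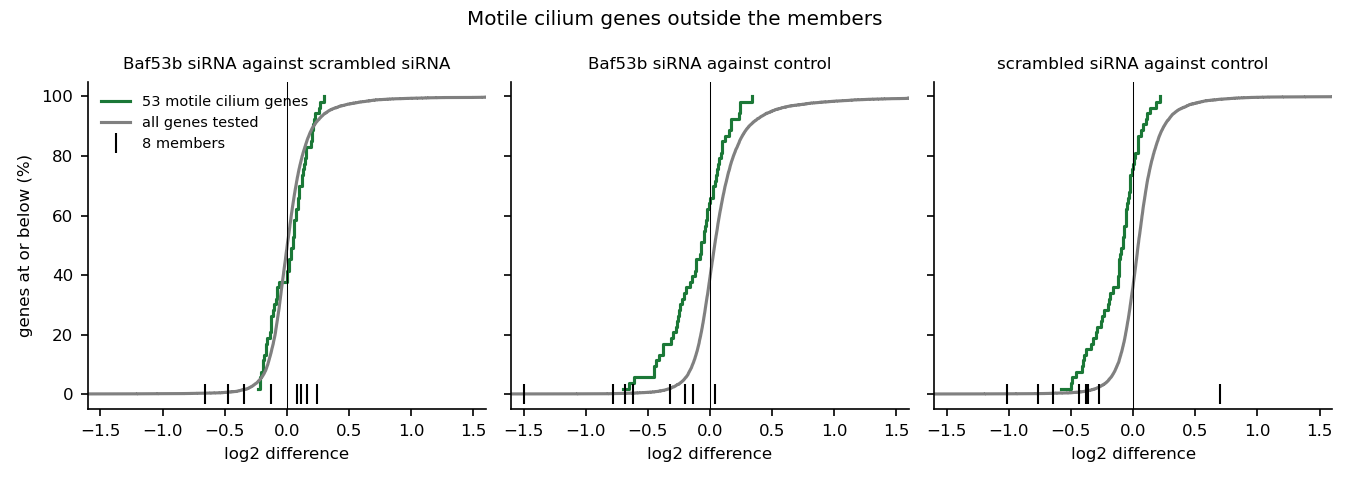
Share of genes at or below each log2 difference (vertical axis, percent) for the 53 tested motile cilium genes and for all 14664 tested genes, with ticks for the 8 members; genes beyond ±1.6 are not drawn. In both comparisons with control the motile cilium curve lies to the left of the curve of all genes, with medians of -0.07 and -0.08 against 0.04.

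The machinery that motile and primary cilia share had medians nearer to 0, and the lists were not tested against each other. All 29 intraflagellar transport genes were tested, and their medians were 0.02, 0.0014 and -0.01 for Baf53b siRNA against scrambled siRNA, Baf53b siRNA against control and scrambled siRNA against control, beside 0.0026, 0.04 and 0.04 over all genes. The medians of the 18 transition zone genes were -0.01, 0.03 and 0.03 and those of the 9 BBSome genes, which carry membrane proteins into cilia, were -0.03, -0.01 and -0.0044. No gene of these lists passed the adjusted test. The intraflagellar motor subunits Kifap3 and Kif3a ran at 84.0 to 90.1 and 61.9 to 68.4 FPKM, and the transition zone gene Ahi1 at 82.9 to 106.2 FPKM, well above the ciliary genes described first. Among regulators of ciliary genes, Rfx3 ran at 9.40 to 15.8 FPKM.

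Choroid plexus markers other than Ttr were mostly near 0. Of 24 listed genes, 14 stayed under 1 FPKM in every library and 8 under 0.2 FPKM. The choroid plexus transcription factor Otx2 was listed at 0 in 5 libraries and at 0.0981 FPKM in control replicate 2, the bicarbonate transporter Slc4a5 reached at most 0.0240 FPKM, and the tight junction gene Cldn2 at most 0.0517 FPKM. These defining genes, with Kcnj13 and Aqp1, were named after their values were seen. In scrambled siRNA replicate 1, where Ttr was highest, 4 of the 24 were listed at 0, among them Otx2, Kcnj13 and Cldn2. Scrambled siRNA replicate 2 and control replicate 2 also had 4 at 0 each, and scrambled siRNA replicate 1 was the shallowest library. Wdr86, Steap1, Col8a1 and Enpp2, also named after their values were seen, were highest there, at 0.352, 0.120, 1.03 and 36.5 FPKM. At such low levels a value of 0 does not show absence. The water channel Aqp1 had at most 0.126 FPKM anywhere.

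The list summed to between 46.9 and 54.0 FPKM per library. Most of that was Enpp2, a secreted lysophospholipase that oligodendrocytes also make, with 28.9 to 36.5 FPKM. Sostdc1 had 3.26 to 5.07 FPKM, Igfbp2 3.03 to 4.28 FPKM and Igf2 1.22 to 3.46 FPKM, and these 4 genes were above 1 FPKM in every library. Scrambled siRNA replicate 1 was the highest library for 4 of the 24 genes (16.7%), against 30.0% of all genes tested. These are unlike sets, since most of the 24 were below the filter that the tested genes passed. Of the 38 motile cilium genes below the filter, 10.5% were highest in that library. Of the 5 that were tested, 0 passed in any comparison.

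Single choroid plexus genes differed in their order over libraries. Control had the highest group mean for 10 of the 24, both control libraries lay above all 4 siRNA libraries for 3 and below them for 1. These counts too have no background over all genes. The genes that follow were named after their values were seen. Calml4 had 0.203 and 1.48 FPKM with Baf53b siRNA, 0.588 and 0.345 FPKM with scrambled siRNA and 0.831 and 2.01 FPKM in control. Folr1, the folate receptor of the choroid plexus, had 0.0669 and 0.515 FPKM with Baf53b siRNA, 0.396 and 0.217 FPKM with scrambled siRNA and 0.863 and 0.774 FPKM in control. Both genes were lowest in Baf53b siRNA replicate 1. Cldn1, a tight junction gene, had 1.01 and 0.775 FPKM with Baf53b siRNA, 0.409 and 0.292 FPKM with scrambled siRNA and 0.325 and 0.193 FPKM in control, and so was highest with Baf53b siRNA. The 7 genes other than Ttr are called ciliary genes here for short, a name that does not rest on the choroid plexus values. Whether choroid plexus tissue was in the dissections was not tested.

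**Figure D5:**
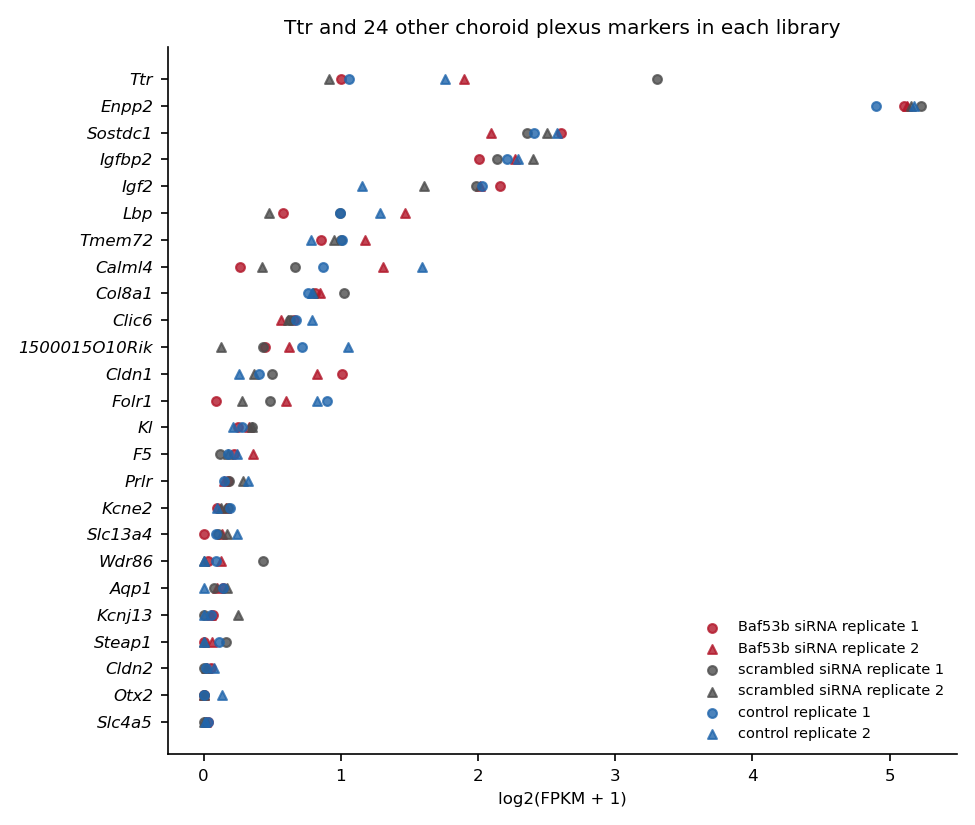
Level as log2(FPKM + 1) (horizontal axis) of Ttr and 24 other choroid plexus markers in the 6 libraries, coloured by group, circles for replicate 1 and triangles for replicate 2. Ttr in scrambled siRNA replicate 1 stands apart from its other 5 values, while Otx2, Slc4a5, Cldn2 and Aqp1 lie at or near 0 in every library.

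Among ependymal and tanycyte markers outside the cilium, 1 of 7 tested genes was called, against control, where 5 of the 7 had a positive difference. Vim, which encodes the intermediate filament vimentin of ependymal cells, tanycytes and reactive astrocytes, had 40.4 and 56.4 FPKM with Baf53b siRNA, 16.0 and 12.2 FPKM with scrambled siRNA and 11.99 and 14.6 FPKM in control. It rose by 1.78 against control (SE 0.21, limma adjusted p = 0.0134) and differed by 1.70 from scrambled siRNA (SE 0.21, adjusted p = 0.0535). Vim was the only called gene among the 139 tested of all 212 ciliary, ependymal and choroid plexus genes listed, against 1.23% of all genes in the comparison with control. There 4 of the 139 had an unadjusted p under 0.05, against 5.02% of all genes. In the comparisons of Baf53b siRNA with scrambled siRNA and of scrambled siRNA with control, 0 of the 139 passed (0.123% and 0% of all genes). In each, 1 of the 139 had an unadjusted p under 0.05 (3.03% and 2.22% of all genes). Leaving out any 1 library of Baf53b siRNA or of control left 0 of them called.

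Astrocyte markers gave 2 calls beside Vim against control, and 1 call against scrambled siRNA. The astrocyte filament gene Gfap had 169.9 and 177.7 FPKM with Baf53b siRNA, 45.1 and 47.3 FPKM with scrambled siRNA and 16.9 and 18.3 FPKM in control, a rise of 3.23 against control (SE 0.13, limma adjusted p = 0.000553). Gfap was also called for Baf53b siRNA against scrambled siRNA, at 1.89 (SE 0.13, limma adjusted p = 0.0111), where 0.123% of all genes were called. Of 8 astrocyte markers 2, Gfap and Aqp4, were called against control and 6 were not, against 1.23% of all genes called. The list summed to between 543.1 and 833.5 FPKM per library. The part of astrocytes in the Vim difference was not tested. Cd24a, a surface protein of ependymal cells, was instead like the ciliary genes, at 3.23 and 5.90 FPKM with Baf53b siRNA, 3.62 and 3.18 FPKM with scrambled siRNA and 4.02 and 7.67 FPKM in control.

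Genes whose pattern was most like the 7 ciliary genes were ranked by Pearson r with their mean standardised level over the 6 libraries, among 1240 protein-coding genes with an SD of at least 0.3 on the log2 scale. The first 5 were Iqcg (0.92), Ak7 (0.90), Enkur (0.87), Pifo (0.87) and Kbtbd4 (0.87), and all but Kbtbd4 were on the motile cilium lists. Ak7, an adenylate kinase of cilia, had 0.212 and 1.10 FPKM with Baf53b siRNA, 0.926 and 0.767 FPKM with scrambled siRNA and 1.10 and 2.21 FPKM in control. The 22 listed genes that entered the ranking had a median r of 0.68, beside -0.34 over all 1240. The genes most like Ttr were Zfp691 (0.99), Letm2 (0.97), Gm28036 (0.91), Thbs4 (0.88) and Mthfs (0.88), each with its highest level in scrambled siRNA replicate 1. None was a listed choroid plexus gene. Only 5 of the 24 choroid plexus genes passed the expression filter, and the SD limit applied to those too. Few could thus enter the ranking, and no conclusion is drawn from their absence. These r rest on 6 libraries that differ in depth and in mitochondrial share, and no p is attached to them.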

How the data were processed

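Messenger RNA of 6 lateral amygdala libraries was measured by paired-end sequencing from a stranded kit with oligo-dT selection, per the labels' protocols. The build was mm10 and the tools were Cufflinks 2.2.1, TopHat2 2.1.1 and bcl2fastq 2.19.1.403, per the submitters' processing notes. The authors deposited FPKM per gene with an interval, per the file headers. FPKM are relative to the library's fragments, so a gene taking many fragments lowers the others. Read counts were not used here, and fragments behind a value were estimated from its interval, taking the half-width as 2 standard errors, which covers counting error only.

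From these, 50383 gene IDs were read, 4 genes with a failed estimate left out and 48 IDs with several rows summed. Genes with a mean of at least 1 FPKM, small RNA types excluded by GENCODE M21, were tested on log2(FPKM + 1) with limma 3.58.1 in R 4.3.3 (trend, two-sided, Benjamini-Hochberg over 14664 genes, 0.05), with 1 spread for all groups (3 residual degrees of freedom), or, for replicate 1 against replicate 2, with group as a term (2). All 8 genes passed the filter. The script was tested on simulated data. From each list the genes called, the 2 of highest mean and the 2 of largest replicate difference could be named, and others are marked as named after their values were seen. The genes and lists were chosen with earlier results of these data known. Alternatives covered the pseudocount, filter, scaling, small RNA, the replicate block and leaving out each library.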

Additional observations from a re-analysis of the deposited data

Results flagged for a closer look

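The difference between the libraries of 1 group ran in opposite directions in different groups. For the 7 ciliary genes the median of replicate 1 minus replicate 2 on the log2(FPKM + 1) scale was -0.56 in Baf53b siRNA, 0.30 in scrambled siRNA and -0.17 in control. For Ttr it was -0.90 in Baf53b siRNA, 2.39 in scrambled siRNA and -0.70 in control. With 1 library per group and replicate number, the difference between groups was not tested.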

How the results depend on the processing

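The medians of the 8 genes moved by less than the spread between replicates under every alternative tried. Leaving out single libraries gave -0.45 to 0.27 for Baf53b siRNA against scrambled siRNA, -0.58 to -0.20 for Baf53b siRNA against control, -0.56 to -0.30 for scrambled siRNA against control and -0.48 to 0.00094 for replicate 1 against replicate 2. Without Ttr, an alternative chosen after seeing the data, the medians were 0.08, -0.62, -0.44 and -0.06 in the same order. Of 452 alternative values of single genes, 431 moved by less than the spread and 21 by more. Several settings could not move a gene's difference between groups. These were no filter, small RNA kept, only the compared groups, the replicate block and leaving out a library of a group not compared. They were counted as unmoved, here and for the medians, so the 431 is no measure of stability. Dynlrb2 was 0.0079 between replicate 1 and replicate 2 and between -0.11 and -0.04 under other scalings.

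Counts over all genes depended more on the settings, and the cause was not tested. For Baf53b siRNA against scrambled siRNA (18 genes called) they were 1 with a pseudocount of 0.1, 0 with no filter, 8 with a mean of at least 5 FPKM, 5 with small RNA kept and 4 to 24 with single libraries left out. For Baf53b siRNA against control (181) they were 42 with no filter, 71 at 5 FPKM and 34 to 139 with libraries left out, and the listed genes called (1, Vim) were 0 with no filter and 0 to 1 with libraries left out. For scrambled siRNA against control (0) they were 1 with only those groups fitted and 0 to 7 with libraries left out. For replicate 1 against replicate 2 (48) they were 0 with no filter, 806 at 5 FPKM, 19 with nuclear genes set to 1 sum, 26 with quantile normalization, 20 with medians set equal, 5 with small RNA kept and 1 to 59 with libraries left out. Listed genes called there (0) were 3 at 5 FPKM.

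Replicate numbers were not taken as pairing, since the labels do not tie them to a batch or animal and only 2 exist. Deviations of same-numbered libraries correlated at 0.36, 0.18 and 0.39 across genes. With the replicate block the counts were 13, 188 and 0, and with no replicate block in the comparison of replicate numbers (no group term) 1425 genes and 7 listed genes were called. Depth limits Ccdc153, Dynlrb2 and Tmem212 most, with 1.54, 4.26 and 6.00 estimated fragments in Baf53b siRNA replicate 1.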

Other observations

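Genes that work with transthyretin gave no calls. Of 9 listed thyroid hormone and retinol genes 7 were tested, and 0 passed the adjusted limma test in the comparisons of groups. Thra, a thyroid hormone receptor, ran between 448.0 and 522.7 FPKM and its target Klf9 between 26.8 and 36.0 FPKM. Rbp4, the retinol-binding protein that travels with transthyretin, had 3.85 and 2.21 FPKM with Baf53b siRNA, 2.87 and 2.58 FPKM with scrambled siRNA and 3.77 and 3.79 FPKM in control, and so was not highest where Ttr was.

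Markers of neighbouring tissue gave 1 call. Prkcd, which encodes a protein kinase C of central amygdala neurons, had 6.28 and 8.93 FPKM with Baf53b siRNA, 4.51 and 4.37 FPKM with scrambled siRNA and 3.14 and 2.46 FPKM in control. It rose by 1.17 on the log2 scale against control (SE 0.20, limma adjusted p = 0.0477) and was the 1 gene called of 6 tested striatal and central amygdala genes. In that comparison 1.23% of all genes were called. Of the 6, 3 had a positive and 3 a negative difference, with a median of -0.0083, so the list had no shared direction. Of 3 tested meningeal and 6 tested thalamic genes 0 were called. Ptgds, made by meninges, choroid plexus and oligodendrocytes, ran between 26.9 and 37.7 FPKM, the meningeal collagen-binding gene Dcn between 2.11 and 6.39 FPKM and the thalamic neuron gene Calb2 between 15.4 and 20.1 FPKM. Prkcd and Dcn were named after their values were seen.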
